A study of Mus musculus with 4 samples.

Results

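The accessible chromatin of 7 genes of the cartilage matrix was examined in mouse chondrocytes at passage 0 (P0) and passage 8 (P8). The genes were Acan, Hapln1, Matn1, Matn3, Comp, Chad and Prg4, 7 of the 20365 protein-coding genes that had an accessible site within 50 kb. Every peak that lay in one of them or within 50 kb of either end was taken. With the libraries of each passage called A and B, this gave 160 (A) and 133 (B) peaks at P0 and 64 (A) and 90 (B) at P8, out of 145703, 119974, 89610 and 99784. Peaks that overlapped were joined into sites, of which 179 lay near the 7 genes and 172311 in the whole genome. A site was assigned by distance alone, so that many of these sites also overlapped a neighbouring gene.

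In ATAC-seq a transposase cuts where chromatin is open, and a peak marks a stretch where sequenced tags pile up above the local background. The cells came from knee cartilage of C57BL/6 mice in the first days after birth and grew in medium with fetal bovine serum. The P0 group (2 libraries) had been in culture for less than a day, and the P8 group (2 libraries) had been passaged repeatedly. Both groups carried no stated genetic change or agent, and neither a sort nor separate cultures or animals were stated for the 2 libraries of a group, so that p-values measure only the spread between these libraries.

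Aggrecan, the product of Acan, is a large proteoglycan whose sulfated chains hold water in cartilage. It binds hyaluronan, and the link protein encoded by Hapln1 locks this bond. Matrilin-1 (Matn1), matrilin-3 (Matn3) and the cartilage oligomeric matrix protein (Comp) connect collagen fibrils and proteoglycans, chondroadherin (Chad) is a leucine-rich protein that binds collagen and cells, and lubricin (Prg4) coats the joint surface. Chondrocytes lose the production of this matrix when they are passaged in culture, a process called dedifferentiation, and P0 and P8 were compared to see how chromatin differs between its beginning and a late stage.

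The P0 libraries were deeper. The genome-wide background of the peak caller was 194 and 162 tags per 10 kb at P0 and 140.1 and 134 tags per 10 kb at P8, and the peaks of all genes together were 1.40 ± 0.220 times as many at P0 (SD, n = 2 and n = 2). Of 11 chondrocyte marker genes, 11 had a peak within 1 kb of their start, or of either end where no strand was given, in each P0 library and 9 in each P8 library. Markers of tendon and fibrous tissue had a peak for 4 and 4 of 6 genes at P0 and for 2 and 3 at P8, and those of macrophages and blood cells for 2 and 2 of 6 at P0 and 1 and 1 at P8. Skeletal muscle and osteoblast markers had a peak for 2 and 2 of 5 genes at P0 and 1 and 1 at P8, and endothelial markers for 2 of 5 in each library. Of the macrophage and blood cell markers, Spi1 had a peak in all 4 libraries, Cd68 in both P0 libraries, and Ptprc, Csf1r, Adgre1 and Fcgr1 in none. Of the endothelial markers, Tek and Kdr had a peak in all 4 libraries, and Pecam1, Cdh5 and Tie1 in none. The part of other cell types in the results was not tested. In a bulk library, fewer cells with open chromatin at a site and less open chromatin per cell cannot be told apart.

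The starts of Acan, Matn1, Hapln1 and Matn3 lay within sites, and the bases before them are shown because these sites differed between the passages in different ways: those of Acan, Hapln1 and Matn3 were held by all 4 libraries, and that of Matn1 by both P0 libraries alone. The sequences are from RefSeq (GRCm38.p6), 5′ to 3′ on the plus strand. Capitals mark matches, on either strand, to the short motifs searched, which were the SOX cores ACAAT and ACAAAG, the AP-1 motif TGANTCA, the RUNX motifs TGTGGT and TGCGGT, the TEAD motif GGAATG and the TATA box TATAAA. No motif overlapped another here.
Acan, chr7:79052976-79053225: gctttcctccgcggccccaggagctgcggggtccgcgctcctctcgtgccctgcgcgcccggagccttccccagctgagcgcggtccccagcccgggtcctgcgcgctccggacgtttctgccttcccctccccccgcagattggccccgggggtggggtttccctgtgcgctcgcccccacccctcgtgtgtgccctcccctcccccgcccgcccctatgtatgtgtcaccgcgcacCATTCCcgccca
Matn1, chr4:130944135-130944384: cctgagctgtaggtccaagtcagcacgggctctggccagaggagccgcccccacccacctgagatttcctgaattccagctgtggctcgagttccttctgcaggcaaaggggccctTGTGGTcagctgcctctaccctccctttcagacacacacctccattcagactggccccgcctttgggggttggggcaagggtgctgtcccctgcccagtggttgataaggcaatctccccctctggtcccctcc
Hapln1, chr13:89540386-89540528: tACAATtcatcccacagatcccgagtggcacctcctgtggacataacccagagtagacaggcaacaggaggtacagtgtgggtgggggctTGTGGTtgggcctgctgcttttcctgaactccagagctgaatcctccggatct
Matn3, chr12:8947679-8947928: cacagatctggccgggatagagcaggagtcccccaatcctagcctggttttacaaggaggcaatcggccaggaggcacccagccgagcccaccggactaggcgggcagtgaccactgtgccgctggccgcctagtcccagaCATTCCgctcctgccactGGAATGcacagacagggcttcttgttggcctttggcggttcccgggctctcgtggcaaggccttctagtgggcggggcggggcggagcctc
The window before Acan held 1 match, to the TEAD motif 12 bases before the start, read on the minus strand. Matn1 had 1 match, to the RUNX motif TGTGGT 134 bases before its start. Hapln1 is shown up to the lower end of the gene, and the RefSeq start used for its 250-base window lies further inside. That window held ACAAT 249 bases and TGTGGT 160 bases before this start. Matn3 had a pair of TEAD matches, 109 and 91 bases before its start and on opposite strands. The 250 bases before Chad, which no site overlapped, held TGCGGT 45 bases and TATAAA 28 bases before the start. No window of these 5 held ACAAAG or TGANTCA. Of 32851 windows of 250 bases before RefSeq starts, 27.7% held ACAAT, 16.5% ACAAAG, 6.75% TGANTCA, 14.0% TGTGGT, 5.10% TGCGGT, 12.6% GGAATG and 12.4% TATAAA. The share of G and C was 74.4% before Acan, 65.2% before Matn3, 62.0% before Matn1, 60.4% before Chad and 54.4% before Hapln1, with a median of 52.4% over all windows. The table used gave no promoter for Comp and Prg4.

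Peaks near the 7 genes were more numerous at P0. P0 libraries had 146 ± 19.1 of them (SD, n = 2) and P8 libraries 77.0 ± 18.4 (SD, n = 2), and the ratio was 1.90 ± 0.518 (SD). Both P0 libraries lay above both P8 libraries, and an exact two-sided permutation test gave p = 0.333, the smallest p that 2 against 2 libraries allow. They covered 46563 and 39871 bp in the P0 libraries but 16431 and 21404 bp in the P8 libraries. The ratio of length was 2.28 ± 0.493 (SD), where all peaks of the libraries gave 1.66 ± 0.317 (SD). The intervals of 1 SD around the ratios of the 7 genes and of all peaks overlapped for both measures. When only peaks that would pass at the lowest background were kept, the ratios were 1.84 for number and 2.25 for length. This kept 98.5% of all peaks and left their lengths as called, so that it cannot show how far depth set the ratios.

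**Figure D1:**
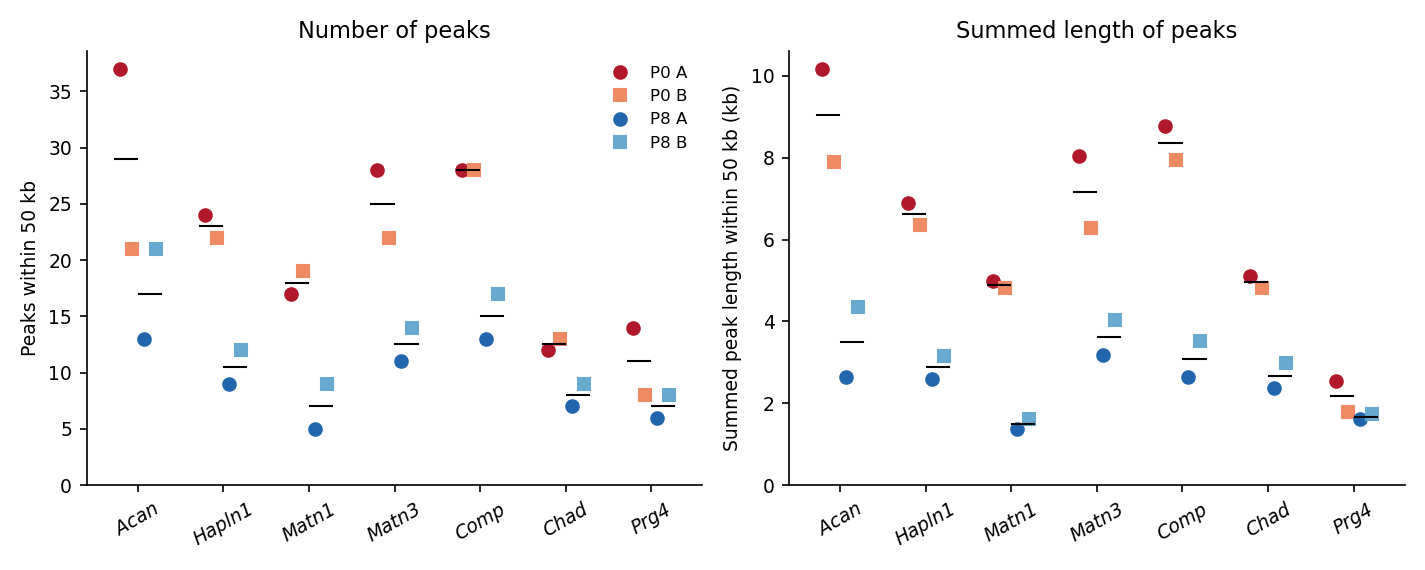
Number (left) and summed length in kb (right) of the peaks within 50 kb of each gene. Each point is 1 library and each black line the mean of the 2 libraries of a passage. Matn1 had 17 and 19 peaks at P0 and 5 and 9 at P8, while the points of Acan touched at 21 peaks and those of Prg4 at 8.

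Each P0 library had more peaks than each P8 library in 5 of the 7 genes. Hapln1 had 24 and 22 peaks at P0 against 9 and 12 at P8. For Matn1 the counts were 17 and 19 against 5 and 9, the widest ratio of the 7 genes (2.57, SD 1.06). Matn3 had 28 and 22 against 11 and 14, Comp 28 and 28 against 13 and 17, and Chad 12 and 13 against 7 and 9. The other two touched: Acan had 37 and 21 peaks at P0 and 13 and 21 at P8, and Prg4 14 and 8 at P0 and 6 and 8 at P8. Of all protein-coding genes with a site, 48.3% had more peaks in both P0 libraries and 3.95% in both P8 libraries, so that 5 of 7 and 0 of 7 stand beside a background that leans the same way. By summed length all 7 were longer in both P0 libraries, against 85.9% of all genes, with 1.86% longer in both P8 libraries. Matn1 again had the widest ratio, from 4990 and 4807 bp to 1361 and 1627 bp (3.28, SD 0.422). Prg4 had the narrowest, from 2552 and 1791 bp to 1621 and 1730 bp (1.30).

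Peak height over background showed no such excess at P0. The median fold enrichment of the peaks near the 7 genes ran from 4.52 and 5.03 in the P0 libraries to 5.94 and 5.37 in the P8 libraries, with 5.38 and 5.87 against 5.44 and 5.67 over all peaks. The median peak of the P0 libraries was 221 and 235 bp wide, and that of the P8 libraries 194 and 184 bp. In contrast, the median summit pileup, the number of tags over the summit, reached 22.5 and 21.0 in the P0 libraries and 14.5 and 14.0 in the P8 libraries. The tags in the 10 kb around the summit, used as local background, were also more at P0. Their median was 2.63 and 2.80 times the genome-wide background at P0 and 1.59 and 1.65 times at P8. All peaks had 1.18 and 1.23 at P0 and 1.31 and 1.36 at P8. This local background counts every tag of the 10 kb, those of the peak and of neighbouring peaks included. Tags between peaks and tags of dense peaks cannot be told apart in it. Fold enrichment divides the pileup by this local background, so the measures were read side by side.

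Of the 179 sites, 41 (22.9%) held a peak in both P0 libraries and in no P8 library, and 2 (1.12%) the reverse. Over all sites these shares were 17.0% and 1.84%. A peak in all 4 libraries was found at 48 sites, 26.8% of those near the 7 genes and 32.4% of all sites. The fold enrichment of the 41 sites had a median of 4.14 in P0 library A and 4.66 in P0 library B and reached 7.51 and 7.60. Their pileups had medians of 22.0 and 21.0 tags and reached 50 and 46, where all peaks of these libraries had medians of 16.0 and 15.0. Comp had 10 of them among its 32 sites, Hapln1 9 of 24, Matn1 8 of 23, Matn3 6 of 33, Acan 3 of 40, Chad 3 of 13 and Prg4 2 of 14. A gene with a site had a median of 2 such sites, and 1.76% of genes had at least as many as Comp, 2.42% as many as Hapln1, 3.58% as many as Matn1 and 8.53% as many as Matn3. Acan and Chad, with 3, stood with 36.5% of genes, and Prg4 with 56.1%. These ranks compare counts and take no account of the number of sites in a window. That number had a median of 24 for the 7 genes and of 14 for all genes with a site. A site of a single library was common, with 39 in P0 library A alone, 14 of them near Acan.

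**Figure D2:**
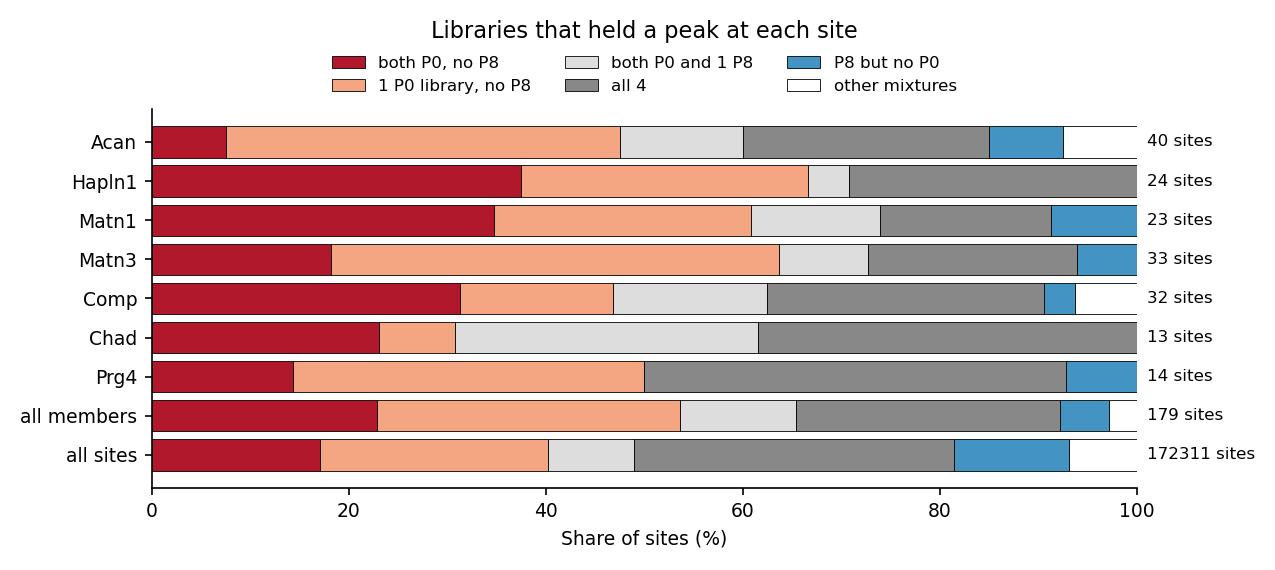
Share of sites, in percent, by the libraries that held a peak, for each gene, for the 7 genes together and for all sites of the genome. The dark red share (both P0 libraries, no P8 library) was 37.5% for Hapln1, 34.8% for Matn1 and 31.2% for Comp, and 7.50% for Acan, against 17.0% of all sites.

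Inside the 7 genes or at their ends, 8 of 46 sites (17.4%) were held by both P0 libraries alone, close to the 17.0% of all sites. Outside the genes it was 33 of 133 (24.8%). Most of the 8 were those of Hapln1. In the body of the link protein gene or at its ends, 6 of 15 sites were held by both P0 libraries and no P8 library, with 3 held by all 4. The one of highest fold enrichment lay 58.9 kb into the gene (chr13:89599433-89599642), with 4.08 and 6.10 in the P0 libraries and pileups of 14 and 18. A further 3 followed within 3310 bp of the upper end, with pileups from 16 to 24 tags. The start of Hapln1 (chr13:89540245-89540922) was held by all 4 libraries, with fold enrichments of 5.98 and 6.14 at P0 and 6.92 and 5.55 at P8, and so was a site 508 bp before it. Matn1 had 1 of 3 sites of this kind in the gene and Comp 1 of 2, while Acan, Matn3, Chad and Prg4 had none in the gene.

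The start of Matn1 was a P0 site. The site chr4:130944021-130944427, which covers the printed bases, had fold enrichments of 4.78 and 5.65 and pileups of 44 and 43 tags at P0, and no peak was called there at P8. Neither P8 library had a peak anywhere in this gene, and the P0 libraries had 1 and 3. Sites 1430, 4356 and 6421 bp before the gene also had a peak in both P0 libraries only, with pileups from 21 to 45 tags. The P0 site of highest fold enrichment (6.38 and 5.90, pileups 16 and 13) lay 30.1 kb away within the neighbouring gene Laptm5. The strongest site of this window, 37.4 kb before the start and in the noncoding gene Gm38599, was shared, with fold enrichments of 10.7 and 10.5 at P0 and 9.61 and 10.8 at P8.

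Matn3, in contrast to Matn1, had a peak at its start in all 4 libraries (chr12:8947524-8948130), with fold enrichments of 8.16 and 12.5 at P0 and 9.34 and 7.65 at P8. Its 6 P0 sites all lay outside the gene. The one of highest fold enrichment (7.23 and 7.60, pileups 32 and 30) was 31.2 kb before the start in the noncoding gene Gm33483, and a pair 7481 and 7015 bp before the start had pileups from 11 to 16 tags. Inside the gene 4 of 9 sites were shared. The strongest of them, 21.8 kb from the start (chr12:8969726-8970204), had fold enrichments of 11.4 and 11.4 at P0 and 12.7 and 12.7 at P8.

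Comp had sites of both kinds around its lower-coordinate end. Its strand was not given in the annotation used, so that this end need not be its start, and before and past Comp refer to coordinates. A site of 168 bp across this end (chr8:70373487-70373654) had fold enrichments of 2.34 and 2.53 and pileups of 35 and 30 tags at P0, and no peak at P8. The low fold enrichment stood beside a local background of 10.1 and 9.51 times the genome-wide level. A site 625 bp before it was likewise held by both P0 libraries alone, with pileups of 36 and 29. All 4 libraries had a peak 1.11 kb before this end, with pileups of 75 and 57 tags at P0 and 37 and 42 at P8, and 2636 bp before it, with 57 and 53 against 25 and 22. Within 1 kb into the gene (chr8:70374476-70374898) all 4 libraries also had a peak, with pileups of 47 and 41 tags at P0 and 22 and 23 at P8. These pileups are not scaled for the deeper P0 libraries. The test of pileup described below (limma, library medians equal) called the site at 2636 bp (log2 0.59, adjusted p = 0.00467). It did not call those at 1.11 kb (0.09, adjusted p = 0.671) and in the gene (0.33, adjusted p = 0.123). The P0 site of highest fold enrichment (6.65 and 6.88) lay 32.9 kb away within Crtc1, and the shared site of highest fold enrichment lay within Upf1, with 9.60 and 10.6 at P0 and 8.22 and 7.49 at P8. These neighbours are not matrix genes, and the assignment of such sites to Comp was not tested.

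Chad, which lies within the gene Acsf2, had no site at its start. The site chr11:94564386-94564758, 289 bp before it, had a peak in both P0 libraries (fold enrichment 5.71 and 5.12, pileup 39 and 29) and in P8 library B (4.96, pileup 12). A site 904 bp before the start was held by both P0 libraries alone, with pileups of 33 and 24. In the gene, 1 site was held by both P0 libraries and P8 library B, with pileups of 33, 30 and 13. The strongest site, within Rsad1, was shared, with fold enrichments of 10.1, 12.8, 10.3 and 8.71 in P0 libraries A and B and P8 libraries A and B.

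Acan, in contrast, kept its main sites as peaks. Its start (chr7:79052894-79053467) had a peak in all 4 libraries, with fold enrichments of 4.51 and 5.78 at P0 and 4.59 and 3.59 at P8. The pileups at the same summits were 48 and 47 tags at P0 and 15 and 13 at P8. Thus the groups overlapped in fold enrichment and lay far apart in tags. The site 8892 bp before the gene (chr7:79043434-79044334) behaved in the same way for tags, with pileups of 54 and 55 at P0 and 11 and 15 at P8. At the strongest Acan site, 31.3 kb before the start (chr7:79021063-79021898), fold enrichments were 14.4 and 14.2 at P0 and 7.91 and 8.97 at P8, and pileups 66 and 52 against 15 and 17. All 3 overlap the noncoding gene Gm26633. The P0 site of highest fold enrichment (7.51 and 5.03) also lay there, 16.2 kb before Acan.

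P8 sites were few. One of the 2 lay 9331 bp past the upper end of Acan within Hapln3 (chr7:79124430-79124574), with fold enrichments of 4.42 and 5.14 and pileups of 8 and 10. The other lay 13.9 kb before Comp, with 3.69 and 4.36 and pileups of 9 and 10. The median P8 peak had a pileup of 13.0 in both libraries near Acan, and of 19.0 and 16.0 near Comp. In fold enrichment the medians of P8 library B were 4.93 near Acan and 4.64 near Comp.

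For the 48 sites with a peak in all 4 libraries, P0 and P8 were compared with limma on log2 fold enrichment, with library medians made equal and Benjamini-Hochberg adjustment over all 55890 such sites. One site was called higher at P0 and 5 at P8, and 42 were not called, where 3.74% of all sites were higher at P0 and 6.20% at P8. The one at P0 was the strongest Acan site, 1.41-fold (log2 0.49, SE 0.15, adjusted p = 0.0407). The 5 at P8 were a site 27.4 kb into Acan (log2 -0.90, SE 0.23, adjusted p = 0.0208), one 2059 bp past Acan (log2 -0.56, SE 0.17, adjusted p = 0.0403), one 4634 bp past Matn1 (log2 -0.87, SE 0.21, adjusted p = 0.0142), one 1209 bp past Comp (log2 -0.66, SE 0.20, adjusted p = 0.0396) and one in Prg4 (log2 -0.92, SE 0.22, adjusted p = 0.0163). Without P0 library A or without P0 library B none of these calls was made by limma (8 and 7 of the 48 and 49 sites at an unadjusted p under 0.05). Before the medians were made equal, all shared sites had a median log2 difference of 0.27 towards P0, and no equalising gave 4 calls at P0 and 0 at P8.

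At 4 of these 5 P8 calls the summit held more tags in the deeper P0 libraries, before any scaling. The site past Matn1 (chr4:130960110-130960442) had pileups of 44 and 44 tags at P0 and 16 and 12 at P8, with fold enrichments of 3.25 and 3.92 against 6.08 and 4.83. The 10 kb around it held 1758 and 1435 tags at P0 and 246 and 232 at P8. Relative to the genome-wide background these were 9.06 and 8.84 times at P0 and 1.76 and 1.73 times at P8. The site past Acan (chr7:79117158-79118142), which overlaps Hapln3, had 1849 and 1497 tags at P0 and 310 and 351 at P8. Its pileups were 44 and 38 against 10 and 15. In Acan (chr7:79080589-79081119) pileups were 32 and 34 against 23 and 15, with 1510 and 1175 against 397 and 425 tags in 10 kb. At the site past Comp, which overlaps Crtc1, pileups were 51 and 53 against 28 and 27, with 2059 and 1632 against 651 and 689 tags. At all of them the P0 and P8 libraries did not overlap in either count of tags before scaling. With library medians equal, limma called the pileup higher at P0 past Matn1 (log2 1.03, adjusted p = 2.05e-04) and past Acan (1.10, adjusted p = 1.12e-04). It did not call the pileup in Acan (0.19, adjusted p = 0.539) or past Comp (0.28, adjusted p = 0.179).

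The pileup is not divided by the local background, and background tags count in it. The same test on the pileup called 15 of the 48 sites higher at P0 and 3 at P8, where 8.90% and 13.8% of all shared sites were called. The 15 were 6 of 10 sites of Acan, 3 of 7 of Matn3, 3 of 9 of Comp, and 1 each of Hapln1, Matn1 and Chad. Acan was higher at its start (2.19-fold, log2 1.13, SE 0.18, adjusted p = 2.73e-05), at 8892 bp before it (2.73-fold, SE 0.17 in log2, adjusted p = 5.48e-07) and at the strongest site (2.36-fold, SE 0.16 in log2, adjusted p = 9.80e-07). The start of Matn3 was 1.68-fold higher (pileups 48 and 62 against 23 and 19, adjusted p = 0.00204) and a site 6.05 kb into Matn3 2.59-fold (51 and 40 against 9 and 14, adjusted p = 6.38e-06). The start of Hapln1 was 1.42-fold higher (68 and 58 against 30 and 27, adjusted p = 0.0102). Without P0 library A limma called no site in the genome on this measure (16 member sites at P0 and 2 at P8 at an unadjusted p under 0.05). Without P0 library B it called 6 of the 7 genes' sites at P0 and 1 at P8, and without P8 library A, where sites needed 3 libraries, 23 and 3 of 67. All shared sites had 0.64 more log2 pileup at P0 before the medians were made equal, and 0.26 once the genome-wide background was divided out.

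**Figure D3:**
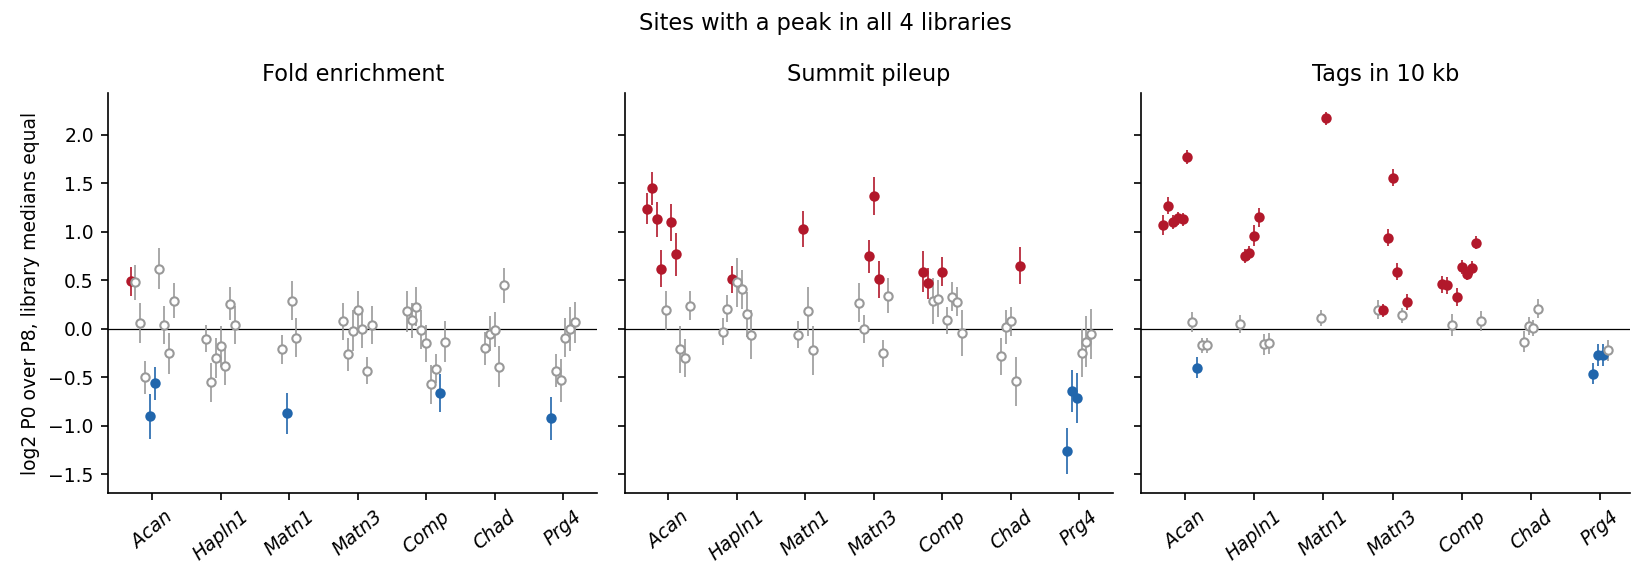
Difference between P0 and P8 (log2, library medians made equal) at each site with a peak in all 4 libraries, for fold enrichment, summit pileup and tags in 10 kb. Points are sites in order of position, bars are 1 SE, red is called higher at P0, blue higher at P8 and open grey not called. The site past Matn1 is blue at -0.87 for fold enrichment and red at 1.03 and 2.17 for the counts of tags, and every called site of Prg4 is blue.

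The tags in 10 kb, peaks included, were raised around peaks along the length of some of these genes. Peaks inside Acan had from 6.46 to 8.23 times the genome-wide background in their 10 kb in P0 library A and from 5.67 to 8.22 times in library B, across a gene of 61874 bp. At P8 the peaks that were called there had from 2.43 to 2.86 times in library A and from 1.84 to 3.20 times in library B. Comp was the highest, with medians of 10.4 and 9.83 times at P0 and 5.60 and 6.22 times at P8. These rest on 2 peaks in each P0 library and 1 in each P8 library, in a gene of 8519 bp, shorter than the 10 kb counted. The start of Hapln1 had 7.45 and 7.26 times at P0 and 3.41 and 4.13 times at P8, and a peak of P0 library B alone 2642 bp into the gene had 8.06 times. Over all peaks in Hapln1 the medians were 2.35 and 2.13 times at P0 and the genome-wide level itself at P8. Matn3 had medians of 3.54 and 3.42 times at P0 and 1.79 and 1.66 times at P8. Matn1 had 5.94 and 5.72 times at P0 (1 and 3 peaks), and no P8 peak to measure. At Chad the values, each of 1 peak, were 4.24 and 4.18 times at P0 and 1.69 times in P8 library B. Prg4 stood at the genome-wide level, with medians of 1.12 and 1.15 times at P8 and no excess in either P0 library.

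**Figure D4:**
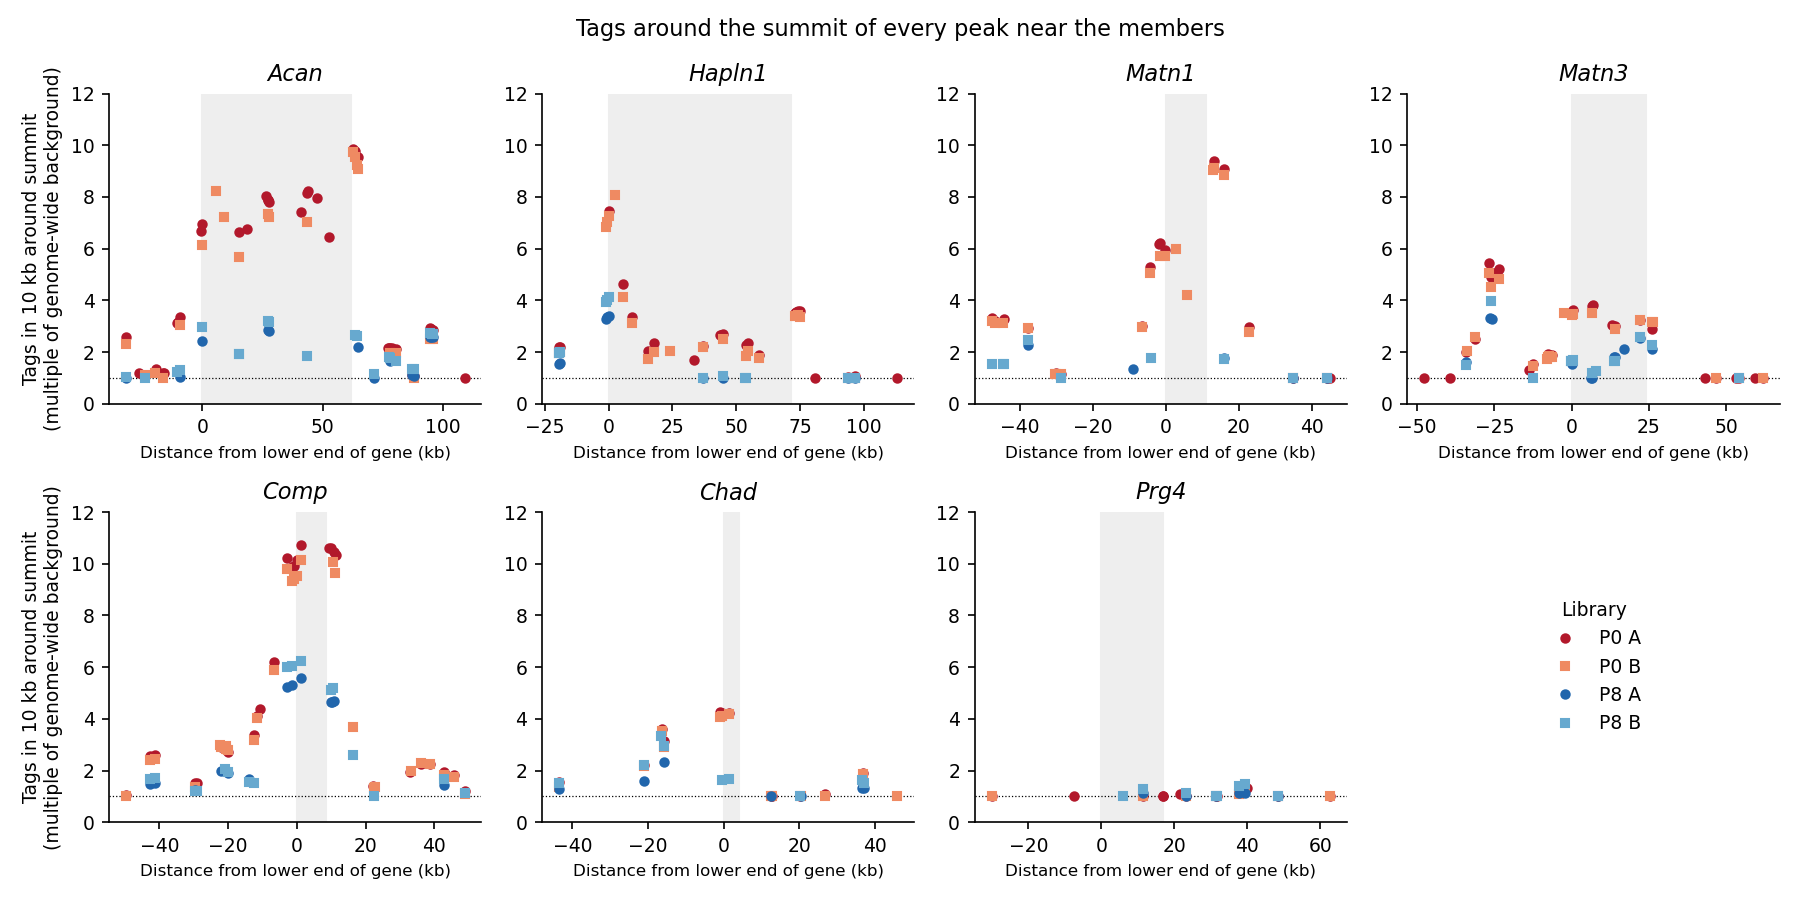
Tags in the 10 kb around the summit of every peak near each gene, as a multiple of the genome-wide background of its library (dotted line), against the distance from the lower end of the gene in kb. The grey band is the gene. In Acan the P0 peaks lie between 5.67 and 8.23 and the P8 peaks between 1.84 and 3.20, and inside Prg4 no peak exceeds 1.30.

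Tested with limma, the tags in 10 kb were called higher at P0 at 23 of 43 shared sites and higher at P8 at 4, where 24.9% of all shared sites were called at P0 and 26.6% at P8. This measure was added after the values were seen, sites closer than 10 kb share tags, and its calls are frequent everywhere, so the sizes are of more use than the calls. The site past Matn1 had the widest difference of the 43 (4.50-fold, log2 2.17, SE 0.07), and the adjusted p was 3.35e-189, or 0.00340 with the genome-wide background as scale. In limma the variance is shared across all sites, so that so small a p does not rest on the spread of the libraries at this site alone. Past Acan the difference was 3.42-fold (log2 1.77, SE 0.07), at 6.05 kb into Matn3 2.94-fold (log2 1.56, SE 0.09) and at the start of Acan 2.14-fold (log2 1.10, SE 0.07). Differences at Hapln1 were 1.72-fold at the start and 2.22-fold 44.6 kb into the gene, and at Comp they ran up to 1.85-fold. The 43 sites had a median log2 difference of 0.28, with -0.02 over all sites. None of 4 sites of Chad was called by limma, with 1 at an unadjusted p under 0.05, and 1 was called at P0 with the genome-wide background as scale. Without P0 library A the counts were 22 at P0 and 2 at P8, and without P0 library B 20 and 1. Without P8 library A they were 37 and 5 of 61 sites, which needed a peak in the other 3 libraries.

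Sites far from a gene were found on both sides of the threshold. In pileup the strongest Acan site, 31.3 kb before the start, was called, as were 1 site of Chad 36.4 kb from its start (log2 0.65, SE 0.19, adjusted p = 0.0108, limma) and 1 of Comp 42.5 kb before its lower end (log2 0.59, SE 0.21, adjusted p = 0.0358, limma). Within Mfge8, 25773 to 33341 bp past Acan, 3 shared sites had pileups of 26 and 15, 25 and 23, and 56 and 56 tags at P0 and of 12 and 18, 20 and 18, and 33 and 28 at P8, and none was called in pileup or fold enrichment (adjusted p from 0.254 to 0.921, limma). For tags in 10 kb, 1 of these 3 was called higher at P8 (log2 -0.40, SE 0.11, adjusted p = 8.17e-04), and this site is not called with the genome-wide background as scale. The strongest site of Hapln1, 18.6 kb before the gene, had pileups of 50 and 47 against 29 and 35 and a log2 difference of -0.03 (SE 0.14, adjusted p = 0.907) once library medians were equal. The strongest site of Matn3, 21.8 kb into the gene, had pileups of 63 and 54 against 45 and 44 (log2 -0.25, SE 0.14, adjusted p = 0.203). In each of the 7 windows the site of highest fold enrichment had a peak in all 4 libraries.

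By the median of its shared sites, Prg4 differed from the others in direction in pileup (log2 -0.45) and in tags (-0.27). Chad (0.02 on both measures) and Matn1 (0.06 in pileup) were barely positive. Without P0 library B, Chad (-0.07) and Matn1 (-0.02) were negative in pileup as well. With the genome-wide background as scale, Chad was at 0.29 in pileup and 0.21 in tags, and Prg4 at -0.18 and -0.08. In fold enrichment its median log2 difference was -0.26. There Hapln1 (-0.18), Matn1 (-0.15), Comp (-0.13) and Chad (-0.05) were also negative, and Acan (0.05) and Matn3 (0.00) were not. The strongest site of Prg4 lay 11.2 kb from the lower end and inside the gene (chr1:150460588-150461061), with fold enrichments of 9.52 and 5.03 at P0 and 10.3 and 11.5 at P8. The pileups were 22 and 10 tags at P0 and 21 and 25 at P8, so that the libraries overlapped before scaling and P0 library B was the low one. After the medians were made equal, P0 had 0.416 times the pileup of P8 (log2 -1.26, SE 0.24, adjusted p = 2.36e-04), and the call held with the genome-wide background as scale (adjusted p = 0.00153). Without P0 library B the log2 difference was -0.82 (adjusted p = 0.0234), and without P0 library A -1.70 with an adjusted p of 0.145. In pileup 3 of 6 shared sites of Prg4 were called higher at P8 and none at P0 by limma (3 and 0 at an unadjusted p under 0.05), which became 1 with the genome-wide background as scale. Tags in 10 kb gave 3 of 4 at P8, or 1 on that scale. The number of peaks near Prg4 did not follow, with 14 and 8 at P0 against 6 and 8.

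The related genes were counted in the same way, from a list of 27 other lecticans, link proteins, matrilins, thrombospondins and cartilage matrix genes. Of these, 21 had more peaks in both P0 libraries and 0 in both P8 libraries, where 48.3% and 3.95% of all genes did. Vcan shares its window with Hapln1, and Hapln3 with Acan, so that 33 of the 595 sites near the list, which are also near the 7 genes, were left out of the counts of sites. Of the other 562, 103 (18.3%) were held by both P0 libraries alone and 8 (1.42%) by both P8 libraries alone, close to the 17.0% and 1.84% of all sites.

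Calls by limma at the shared sites of this list differed between its classes. The 14 cartilage matrix genes outside these families held most of the P0 calls, with 37 of 103 shared sites (35.9%) higher at P0 in pileup and 9 (8.74%) at P8, and 61 of 102 (59.8%) and 13 (12.7%) in tags. In fold enrichment 2 of the 103 (1.94%) were higher at P0 and 23 (22.3%) at P8. Over all shared sites these shares were 8.90% and 13.8% in pileup, 24.9% and 26.6% in tags, and 3.74% and 6.20% in fold enrichment. The other matrilins, Matn2 and Matn4, had a pileup higher at P0 at 1 of 23 sites and higher at P8 at 5, and for tags at 4 and 10 of 21. Thrombospondins, the family of Comp, had 6 of 31 in each direction in pileup, and 10 of 28 at P0 and 9 at P8 in tags. Lecticans and link proteins had 4 of 23 at P0 and 1 at P8 in pileup, and 6 and 4 of 21 in tags. The difference between the classes was not tested. Col9a1, which encodes a chain of the fibril-associated collagen IX, had 9 of 11 sites higher at P0 in pileup and 10 of 10 in tags. For Col2a1, the main cartilage collagen, it was 7 of 9 and 8 of 9. Not all followed: Matn4 had 1 of 12 higher at P0 and 3 at P8 in pileup, Thbs1 had 3 of 5 and Prelp 4 of 9 higher at P8. Vcan, the lectican of many soft tissues, had 22 and 18 peaks at P0 and 6 and 9 at P8, and none of its 5 shared sites was called by limma on any of the 3 measures.

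By the summed length of peaks in the 4 libraries, the protein-coding genes nearest to Acan were Plekha6, Col11a2 and Dlgap4, with distances of 0.0822, 0.131 and 0.160 (Euclidean, on log2 of the length plus 1 kb, over 4 libraries). Col11a2, a collagen XI chain of cartilage, had 9894 and 8282 bp in the P0 libraries and 2696 and 3974 bp in the P8 libraries, beside 10176 and 7900 bp and 2643 and 4363 bp for Acan. Among the 7 genes, Comp was nearest to Acan (0.313) and Prg4 farthest (2.59).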

How the data were processed

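ATAC-seq of 4 libraries was used, 2 of P0 and 2 of P8 chondrocytes of mouse knee cartilage. Paired-end reads were aligned by the authors to mm10 (GRCm38) with Bowtie2, and MACS2 peaks were called at default parameters in each library. The deposited tables list every peak with its position, summit pileup (signal), fold enrichment over local background, −log10 p-value and −log10 q-value. Versions are not given in the sources used here, nor are read filters, duplicates or the Tn5 shift. One header was spoiled: that column held −log10 p at P0 and −log10 q at P8, as a Poisson test of pileup against background showed for 100.0% of 455071 peaks (within 0.01). A further deposited table holds the authors' DiffBind log2 fold changes and FDR and was not used. Library names do not carry the replicate numbers, so libraries are called A and B.

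The members and gene lists were chosen with earlier results of these data known. Genes were placed with RefSeq (GRCm38.p6). Peaks overlapping by at least 1 bp were merged into sites, and a site took in each library the highest fold enrichment and pileup of its peaks, and the tags at the peak of highest fold enrichment. The tags in 10 kb were recovered from the local background, (pileup + 1)/fold enrichment − 1, in steps of 0.0073 (tags of 73 bp), and were whole in 100.0% of 293954 peaks above the genome-wide background (within 0.1). Sites with a peak in all 4 libraries were tested with limma 3.58.1 (R 4.3.3; log2, no pseudocount, medians made equal, trended variance, threshold 0.05 after Benjamini-Hochberg adjustment). Sites without a peak in some library could not enter the test. For tags, sites at the genome-wide background in all 4 libraries were left out, which kept 85.2% of 55890. Exact permutation tests over 2 and 2 libraries cannot go below 0.333. Pileup and tags as measures of their own were added after values were seen. Joins and fits were tested on simulated data. The sites named are, for each gene, that at its start, those of highest fold enrichment among all, P0-only and P8-only sites, and those called on fold enrichment; other sites given were chosen after their values were seen. Software was Python 3.11.15 with scipy 1.17.1, pandas 2.3.3, numpy 2.4.6 and matplotlib 3.10.9. Other settings are given in the closing section.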

Additional observations from a re-analysis of the deposited data

How the results depend on the processing

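No paired analysis was possible because the peak lists carry no replicate number for a library. Of 527 recomputed values, 416 stayed on one side of the threshold in one direction or moved by less than the limit set for them; the cause of the other changes was not tested beyond what the setting itself removes. The ratio of peaks near the 7 genes ran from 1.63 to 2.29 and that of summed length from 2.02 to 2.63 with each library left out, and 5 to 7 genes had more peaks at P0. Sites of both P0 libraries alone were 23 of 92 within 10 kb and 65 of 284 within 100 kb. With a library left out, a class needed a peak in each library of its passage that was kept and none in the other passage. The P0 class then ran from 43 of 178 sites without P8 library A (24.2%, with 20.4% of all sites) to 83 of 167 without P0 library B (49.7%, with 37.1% of all sites). Sites of both P8 libraries alone were 1 within 10 kb, 4 within 100 kb and 0 at a −log10 q of at least 5. The P8 class held from 2 to 6 sites with each library left out.

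For fold enrichment, the 1 and 5 calls (P0 and P8) became 4 and 0 without equal medians, 1 and 1 after quantile normalization, 0 and 5 for the mean over the peaks of a site, 0 and 4 without the variance trend, and 42 and 4 of 117 sites where missing values were set to the lowest fold enrichment, which adds the sites of a single passage. With pileup in its place they became 15 and 3, and 6 of the named sites with a call on either measure changed sign: those of Acan in the gene (log2 0.19) and past it (1.10), the starts of Hapln1 (0.51) and Matn3 (0.75), and the sites past Matn1 (1.03) and Comp (0.28). With each library left out, calls on fold enrichment ran from 0 to 1 at P0 and from 0 to 4 at P8, on pileup from 0 to 23 and from 0 to 3, and on tags from 20 to 37 and from 1 to 5; the lone library of a passage was assumed to vary like the others. Scaled to the genome-wide background, pileup gave 23 and 1 calls and tags 26 and 1. With only 2 libraries a passage and peak lists in place of reads, a site without a peak has no value, so that its accessibility at P8 has no lower bound here.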
